A study of Mus musculus with 10 samples.

Results

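The poly(ADP-ribose) polymerase (PARP) family was followed across 10 colon tumors through 10 gene names of the expression table: Parp1, Parp2, Parp3, Parp4, Parp8, Parp9, Parp10, Parp12, Parp14 and Dtx3l. The members were taken by name, and all 10 were found among the 16875 gene names of the table and passed the filter of a mean of at least 0.5 FPKM (fragments per kilobase of transcript, scaled to the mapped reads of the tumor). The comparison was between DNA repair members (Parp1 and Parp2) and antiviral members (Parp9, Parp12, Parp14 and Dtx3l), in 5 control and 5 Villin-WlscKO tumors. Tumors in both groups had been induced in C57BL/6 mice with azoxymethane (AOM), a mutagen, and 3 cycles of 2% dextran sulfate sodium (DSS), which injures the colon epithelium. The control samples are titled Wls WT. For the animals behind its tumor organoids the study gives Wls flox/flox, with Villin-Cre ERT2 in the knockout and without it in the control. Wls encodes the carrier that Wnt ligands need for secretion. The Villin-WlscKO mice carried the Wls allele that Cre deletes together with Villin-Cre ERT2, whose promoter is active in intestinal epithelium and not in stroma or immune cells. They had received 5 injections of tamoxifen at 80 mg/kg, begun 30 days before the tumors were collected. According to the study's legend the control tumors had not been exposed to tamoxifen unless otherwise stated. The mice, preferentially females by the study's methods, were 6 to 10 weeks old at the start, and tumors were taken 120 days after AOM. The number of mice behind the tumors and the pairing of tumors with mice are not given in the sources used here, so n counts macrodissected tumor pieces.

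PARP enzymes transfer ADP-ribose from NAD+ to proteins and nucleic acids. Parp1 and Parp2 bind broken DNA, build poly(ADP-ribose) chains at the break and recruit repair proteins, whereas most other members add a single ADP-ribose unit or have no transferase activity. A subset of the family, including Parp9, Parp10, Parp12, Parp14 and Zc3hav1, is induced by interferons and takes part in the defense against viruses. Dtx3l is no PARP: it is an E3 ubiquitin ligase that forms a complex with Parp9 and is counted here with its partner.

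Wls stood at 72.9 ± 7.06 FPKM (SD, n = 5) in control and at 6.37 ± 4.89 FPKM in Villin-WlscKO tumors, a difference of -3.59 on the log2(FPKM + 1) scale (limma, adjusted p = 0.000337). The sum of FPKM ran from 1207683 to 1533885 per tumor and read numbers were not recovered, so that precision rests on the spread between tumors. The RNA of the inactive X chromosome, Xist, ran from 0.0366 to 0.420 FPKM in the controls and from 439 to 701 FPKM in Villin-WlscKO tumors. Y-linked Eif2s3y was the reverse, with 30.4 FPKM or more in controls and at most 0.138 FPKM otherwise, so that sex, tamoxifen and genotype cannot be told apart in any comparison below. Among the marker lists, only the summed FPKM of T and NK cell markers did not overlap between the groups. Summed FPKM of 8 T and NK cell markers ran from 4.29 to 13.4 in control and from 13.9 to 32.1 in Villin-WlscKO tumors, and 6 of the 7 tested markers were past the threshold. Ifng, the interferon of T and NK cells, was listed at 0 in 4 of the 5 control tumors and at 0.0584 FPKM in the other, and at 0.648, 1.35, 0.719, 0.185 and 0.387 FPKM in Villin-WlscKO tumors 1 to 5. Summed myeloid markers (449 to 1083 against 694 to 1454 FPKM) and epithelial markers (6105 to 8613 against 7460 to 9573 FPKM) overlapped, with 1 called gene in each list, Cd14 and Krt20, both higher. None of the 3 B cell, 6 fibroblast, 4 endothelial, 6 squamous and 8 proliferation markers tested was past the threshold, with 2, 0, 0, 0 and 0 at an unadjusted p under 0.05. Over all 16757 genes tested, 10.9% were past the threshold and 4308 had an unadjusted p under 0.05. Squamous markers summed to 11.2 to 1247 FPKM in Villin-WlscKO tumors, against 27.7 to 181 FPKM in control tumors, and were high in Villin-WlscKO tumors 2 and 3. B cell markers summed to 0.366 to 1.95 FPKM in control and to 1.88 to 7.35 FPKM in Villin-WlscKO tumors.

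The family did not move as a block. All 4 antiviral members and Parp3 were higher in Villin-WlscKO tumors, Parp1 was lower, and Parp2, Parp4, Parp8 and Parp10 did not pass the threshold of an adjusted p under 0.05. Thus 5 of the 10 members were higher and 1 lower, where 6.12% of the 16757 genes tested were called higher, 4.75% lower and 10.9% in either direction. The same 6 members had groups of tumors that did not overlap, 5 above and 1 below, against 5.33% of all genes above, 4.76% below and 10.1% in either direction. The median difference, Villin-WlscKO minus control, was 0.53 on the log2(FPKM + 1) scale over the 10 members and 0.0073 over all genes tested.

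**Figure D1:**
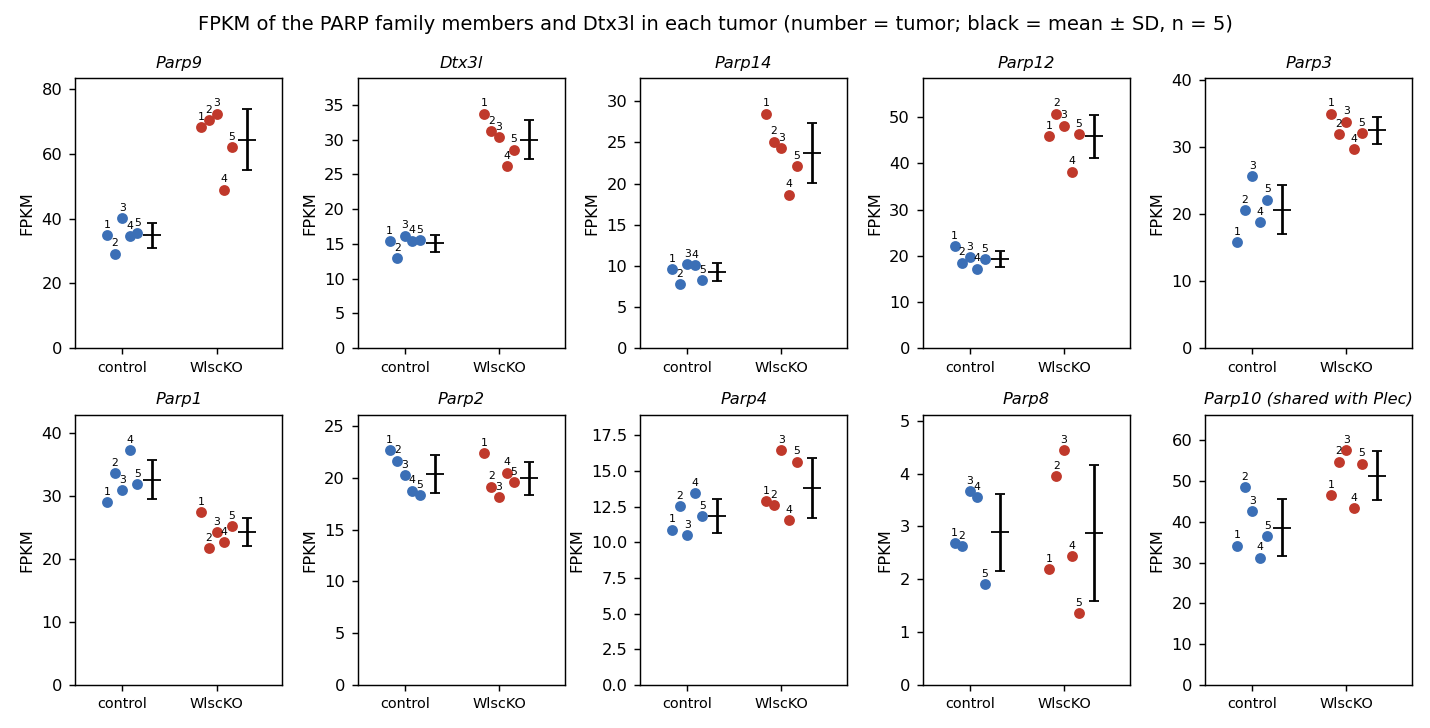
FPKM of each member (vertical axis, from 0) in control (blue) and Villin-WlscKO tumors (red), with the tumor number over each point and the mean ± SD in black (n = 5). In Parp9, Dtx3l, Parp14, Parp12 and Parp3 every Villin-WlscKO tumor lies above every control tumor, in Parp1 every one lies below, and in the remaining 4 panels the groups overlap.

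Parp9 and Dtx3l encode the interacting pair, Parp9 (ENSMUSG00000022906) being a macrodomain protein that reads ADP-ribose and Dtx3l (ENSMUSG00000049502) the ubiquitin ligase. The genes stand head to head on GRCm38 at chr16:35938470-35972605 (plus strand) and chr16:35926511-35939151 (minus strand). Parp9 stood at 34.8, 29.2, 40.1, 34.7 and 35.5 FPKM in control tumors 1 to 5 and at 68.3, 70.5, 72.5, 49.0 and 62.1 FPKM in Villin-WlscKO tumors 1 to 5. The groups did not overlap, and Villin-WlscKO tumor 4, the lowest of its group, was still above the highest control tumor. The mean went from 34.9 ± 3.88 to 64.5 ± 9.50 FPKM (SD, n = 5), a difference of 0.86 (SE 0.12, adjusted p = 0.00130) on the log2 scale. For Dtx3l the control tumors held 15.4, 13.0, 16.2, 15.5 and 15.6 FPKM and the Villin-WlscKO tumors 33.8, 31.2, 30.4, 26.2 and 28.6 FPKM. Here too tumor 4 was the lowest of the Villin-WlscKO group and no tumor of one group entered the range of the other. Dtx3l rose from 15.1 ± 1.24 to 30.03 ± 2.84 FPKM, a difference of 0.94 (SE 0.085, adjusted p = 8.70e-05).

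The 2 partners kept a similar proportion. The ratio of Parp9 to Dtx3l in FPKM averaged 2.30 in control tumors, with a coefficient of variation of 4.29%, and 2.14 in Villin-WlscKO tumors, with a coefficient of variation of 9.43%, and ran from 1.87 to 2.48 over all 10 tumors. The annotated spans overlap by 682 bases on opposite strands. The libraries were stranded, but the use of strand in the quantification is not stated in the sources used here, so that reads of those 682 bases cannot be assigned with certainty.

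Parp14 (ENSMUSG00000034422, chr16:35832874-35871544, minus strand), a large mono-ADP-ribosyltransferase with macrodomains that acts in cytokine and interferon signaling, lies 54966 bases from Dtx3l. It was the least abundant antiviral member in control tumors, at 9.65, 7.81, 10.2, 10.1 and 8.31 FPKM, and reached 28.5, 25.1, 24.4, 18.7 and 22.1 FPKM in Villin-WlscKO tumors 1 to 5. Every Villin-WlscKO tumor was above every control tumor, with tumor 1 the highest and tumor 4 the lowest. The mean went from 9.21 ± 1.09 to 23.7 ± 3.65 FPKM (SD, n = 5), a difference of 1.27 (SE 0.12, adjusted p = 0.00011) and the largest of the 10 members. Parp14 rose by more than its neighbor: its FPKM ratio to Dtx3l lay between 0.534 and 0.650 in control tumors and between 0.712 and 0.844 in Villin-WlscKO tumors.

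Parp12 (ENSMUSG00000038507, chr6:39086410-39118349, minus strand), a mono-ADP-ribosyltransferase with CCCH zinc fingers that restricts RNA viruses, stands on another chromosome. It measured 22.1, 18.5, 19.7, 17.2 and 19.3 FPKM in control tumors 1 to 5 and 45.9, 50.8, 48.2, 38.3 and 46.3 FPKM in Villin-WlscKO tumors 1 to 5. The groups were far apart, and once more Villin-WlscKO tumor 4 was the lowest of its group. The mean rose from 19.4 ± 1.78 to 45.9 ± 4.69 FPKM, a difference of 1.20 (SE 0.089, adjusted p = 2.94e-05). Between the groups, these rises went together with the T and NK cell markers given above, whose part in them was not tested. Within the Villin-WlscKO group the order of tumors went with these markers only in part. Villin-WlscKO tumor 1, the highest in Parp14 and Dtx3l, was the lowest in Cd3d, Cd3e, Cd3g, Cd8a, Gzma and Gzmb. The same tumor was the highest in Cd4 and in the middle for Ifng. Villin-WlscKO tumor 2, the highest in Parp12, was also the highest in Cd3d, Cd3g, Gzmb and Ifng. Tumor 3 of that group, the highest in Parp9, was the highest in Cd3e and Gzma. Villin-WlscKO tumor 4, the lowest in all 4 antiviral members, was the lowest in Ifng and Cd4. Without Villin-WlscKO tumors 2 and 3, which held the high squamous markers, the differences were 0.75 for Parp9, 0.92 for Dtx3l, 1.22 for Parp14 and 1.13 for Parp12, and all 4 calls held. In pieces of whole tumor, more cells of a type and more RNA per cell cannot be told apart.

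The regions just before the annotated starts are shown for the genes that represent each pattern: Dtx3l and Parp12, which rose, Parp1, which fell, Parp11, a PARP gene outside the 10 members that also rose, and Parp4, which did not pass the threshold. Windows from 250 bases before to 50 bases after the start were taken from RefSeq on GRCm38.p6, and 7 of the 10 members matched one. Each was searched on both strands for the core of the interferon-stimulated response element, GAAANNGAAA, and for the interferon-gamma activated site, TTCNNNGAA. The RefSeq start of Dtx3l lies inside the gene span given above. Part of its printed stretch is therefore inside that span, and all of it lies within the span of Parp9. The 250 bases before the start are printed 5′ to 3′ on the strand of the gene, with matches to either motif in capitals.
Dtx3l, chr16:35939028-35939277, minus strand: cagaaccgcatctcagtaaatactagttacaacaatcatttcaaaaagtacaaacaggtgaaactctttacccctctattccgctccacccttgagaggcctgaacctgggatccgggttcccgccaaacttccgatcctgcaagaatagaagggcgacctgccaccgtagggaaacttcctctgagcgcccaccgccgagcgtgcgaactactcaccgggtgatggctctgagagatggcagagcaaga
Parp12, chr6:39118350-39118599, minus strand: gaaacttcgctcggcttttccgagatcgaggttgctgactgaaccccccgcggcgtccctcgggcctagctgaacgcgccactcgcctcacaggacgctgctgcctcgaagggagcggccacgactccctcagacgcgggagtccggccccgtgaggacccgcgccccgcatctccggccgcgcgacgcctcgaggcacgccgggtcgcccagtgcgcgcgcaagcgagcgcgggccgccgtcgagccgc
Parp1, chr1:180568641-180568890, plus strand: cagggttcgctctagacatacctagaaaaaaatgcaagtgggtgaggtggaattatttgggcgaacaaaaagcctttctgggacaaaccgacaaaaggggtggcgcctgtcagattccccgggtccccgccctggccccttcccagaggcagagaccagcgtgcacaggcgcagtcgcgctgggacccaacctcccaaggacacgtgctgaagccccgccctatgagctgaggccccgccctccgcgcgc
Parp11, chr6:127446590-127446839, plus strand: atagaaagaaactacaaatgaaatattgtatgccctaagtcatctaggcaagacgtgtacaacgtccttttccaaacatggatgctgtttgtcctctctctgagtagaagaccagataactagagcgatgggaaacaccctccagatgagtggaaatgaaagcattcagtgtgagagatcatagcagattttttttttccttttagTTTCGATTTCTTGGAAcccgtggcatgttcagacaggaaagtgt
Parp4, chr14:56575369-56575618, plus strand: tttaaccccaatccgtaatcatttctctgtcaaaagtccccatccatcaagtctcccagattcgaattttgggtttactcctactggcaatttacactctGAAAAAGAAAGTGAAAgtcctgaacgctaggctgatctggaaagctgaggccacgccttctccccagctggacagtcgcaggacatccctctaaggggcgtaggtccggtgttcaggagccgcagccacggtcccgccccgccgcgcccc

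Among the 7 members with a window, the interferon-stimulated response element core was found in Parp4 only, at 2 overlapping positions that begin 150 and 144 bases before the start. The activated site was found in 0 of the 7. In Parp11 a core begins 44 bases before the start of the first of its 2 windows, read on the opposite strand, and overlaps an activated site that begins 37 bases before the start. The core was present in 3.99% of the 27025 genes with a window and in 15 of 25 interferon-induced genes with a window, described further on. The activated site was present in 9.55% of those 27025 genes and in 6 of those 25. The windows of Dtx3l and Parp12 do not hold these letters, which says nothing about sites elsewhere or about the factors.

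Parp1 (ENSMUSG00000026496, chr1:180568924-180601254, plus strand), the most abundant nuclear sensor of DNA breaks, was the only member that fell. It stood at 29.1, 33.7, 31.0, 37.3 and 31.9 FPKM in control tumors 1 to 5 and at 27.5, 21.7, 24.3, 22.7 and 25.2 FPKM in Villin-WlscKO tumors 1 to 5. The groups did not overlap, although Villin-WlscKO tumor 1 came close to control tumor 1. The mean went from 32.6 ± 3.10 to 24.3 ± 2.25 FPKM (SD, n = 5), a difference of -0.41 (SE 0.085, 95% interval -0.60 to -0.22, adjusted p = 0.0130). The call was lost after scaling every tumor to an equal total, which moves the median of all genes to 0.097 (difference -0.31, adjusted p = 0.0888), and when Villin-WlscKO tumors 2 and 3 were left out (-0.36, adjusted p = 0.0712). The entry shares all its values with Mir6904, a microRNA inside the gene.

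Parp2 (ENSMUSG00000036023, chr14:50807841-50821301, plus strand), the second break-activated poly(ADP-ribose) polymerase, measured 22.7, 21.7, 20.2, 18.8 and 18.4 FPKM in control and 22.4, 19.2, 18.2, 20.5 and 19.6 FPKM in Villin-WlscKO tumors. The ranges lay over each other. The means were 20.4 ± 1.84 and 20.0 ± 1.60 FPKM, and the difference of -0.025 (95% interval -0.21 to 0.16, adjusted p = 0.887) turned positive after scaling to an equal total. That interval gives the changes that 5 tumors a group leave possible and is no limit of detection.

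Antiviral and DNA repair members were compared directly by the log2 ratio of FPKM + 1 within each tumor, which does not depend on the scaling between tumors except through the pseudocount. All 8 ratios were higher in Villin-WlscKO tumors with no overlap of groups. Each reached the smallest p that the 252 arrangements of 10 tumors allow (two-sided exact permutation test, p = 0.00794, unadjusted, 8 ratios computed that share their genes). The ratios to Parp1 had to separate in this way, because the antiviral members rose and Parp1 fell without overlap. Those to Parp2 largely restate the rises of the antiviral members. As the members were chosen with earlier results of these data known, these p-values add no separate evidence. The shift was 0.89 for Parp9 to Parp2, the smallest, and 1.68 for Parp14 to Parp1, the largest. The ratio of Parp9 to Parp1 was 0.25, -0.20, 0.36, -0.10 and 0.15 in control tumors 1 to 5 and 1.28, 1.66, 1.54, 1.08 and 1.27 in Villin-WlscKO tumors 1 to 5. Control tumors thus held about as much Parp9 as Parp1 per transcript length, and all Villin-WlscKO tumors held more Parp9. For Parp12 to Parp2, where the repair gene itself did not pass the threshold, the ratio was -0.069 ± 0.11 in control and 1.16 ± 0.22 in Villin-WlscKO tumors (SD, n = 5). Of the summed FPKM of 16 genes, the other 9 members and the 7 further PARP genes below, the antiviral members made up 26.0% ± 1.93 in control and 41.4% ± 3.09 in Villin-WlscKO tumors, and the DNA repair members 17.6% ± 1.00 and 11.2% ± 0.763. Parp10 was left out of these shares because its values are those of a shared entry.

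**Figure D2:**
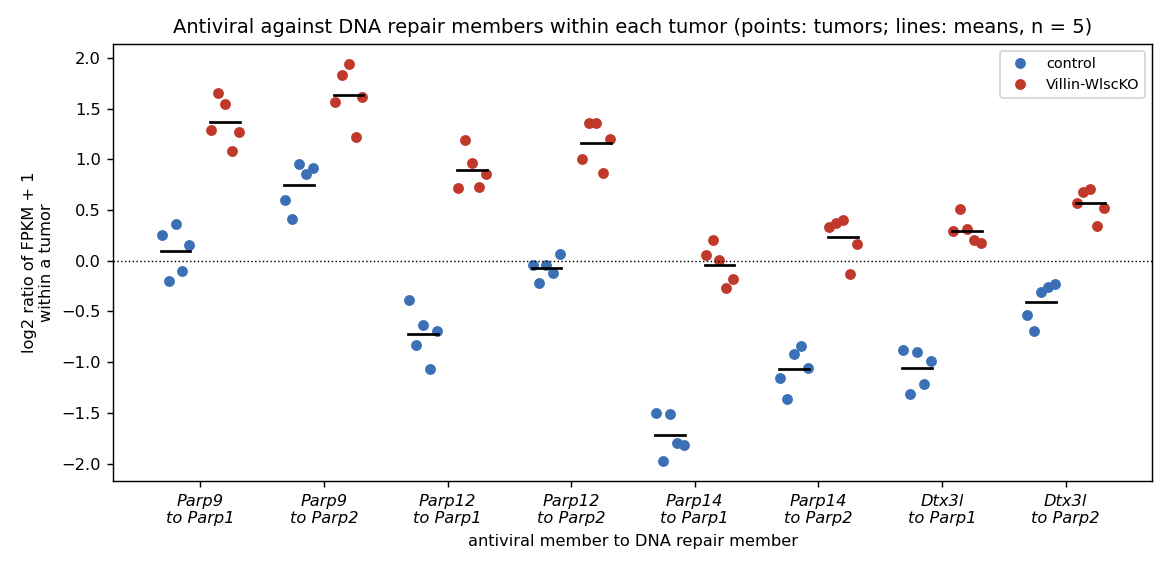
Log2 ratio of FPKM + 1 within a tumor (vertical axis) for each antiviral member to each DNA repair member (horizontal axis), in control (blue) and Villin-WlscKO tumors (red), with the mean of 5 tumors as a line. All 8 pairs show the Villin-WlscKO tumors above the control tumors, with shifts of the mean from 0.89 to 1.68.

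The remaining members include 1 that rose. Parp3 (ENSMUSG00000023249, chr9:106470322-106476949, minus strand) is a mono-ADP-ribosyltransferase activated by DNA breaks that acts in end joining. Parp3 measured 15.9, 20.7, 25.7, 18.9 and 22.2 FPKM in control tumors 1 to 5 and 35.1, 32.0, 33.8, 29.8 and 32.2 FPKM in Villin-WlscKO tumors 1 to 5. The control tumors were spread more widely than the Villin-WlscKO tumors, and the groups did not overlap. The mean rose from 20.7 ± 3.65 to 32.6 ± 2.00 FPKM, a difference of 0.65 (SE 0.11, adjusted p = 0.00534). The DNA repair genes of the family therefore did not share a direction, as Parp1 fell and Parp3 rose. Parp3 overlaps Rrp9 on the opposite strand by 987 bases, and Rrp9 went from 25.0 to 26.5 FPKM (difference 0.10, adjusted p = 0.733).

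Parp4 (ENSMUSG00000054509, chr14:56575619-56659794, plus strand), the PARP of the vault ribonucleoprotein particle, measured 10.9, 12.5, 10.5, 13.4 and 11.9 FPKM in control and 12.9, 12.6, 16.5, 11.5 and 15.7 FPKM in Villin-WlscKO tumors. Only Villin-WlscKO tumors 3 and 5 were above all control tumors. The difference was 0.20 (95% interval -0.043 to 0.45, adjusted p = 0.286). Parp8 (ENSMUSG00000021725, chr13:116854820-117025537, minus strand), a little studied mono-ADP-ribosyltransferase, was the lowest of the family, at 2.68, 2.63, 3.67, 3.56 and 1.91 FPKM in control and 2.19, 3.95, 4.44, 2.44 and 1.35 FPKM in Villin-WlscKO tumors. The Villin-WlscKO tumors spread below and above the control range. Its difference was -0.050 with a wide 95% interval of -0.57 to 0.47 (adjusted p = 0.925), and the sign depended on the scaling.

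Parp10 (ENSMUSG00000063268, chr15:76231174-76243441, minus strand), an interferon-induced mono-ADP-ribosyltransferase, cannot be read on its own here. All 10 of its values equal those of Plec, the gene of the cytoskeletal linker plectin, which it overlaps by 1401 bases on the same strand. The shared entry measured 34.2, 48.4, 42.7, 31.2 and 36.5 FPKM in control and 46.5, 54.8, 57.5, 43.4 and 54.3 FPKM in Villin-WlscKO tumors. The Villin-WlscKO tumors were mostly higher, but control tumor 2 exceeded 2 of them. The means were 38.6 ± 6.93 and 51.3 ± 6.01 FPKM, with a difference of 0.41 (SE 0.13, adjusted p = 0.0639). The entry passed the threshold without control tumor 2 (0.50, adjusted p = 0.0320) and after scaling to an equal total (0.51, adjusted p = 0.0465).

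The order of the members by FPKM, which is per transcript length, differed between the groups. In control tumors it ran Parp10, Parp9, Parp1, Parp3, Parp2, Parp12, Dtx3l, Parp4, Parp14 and Parp8. Neighbors in this order did not overlap in range between Parp1 and Parp3, Parp12 and Dtx3l, Parp4 and Parp14, and Parp14 and Parp8, and overlapped elsewhere. In Villin-WlscKO tumors it ran Parp9, Parp10, Parp12, Parp3, Dtx3l, Parp1, Parp14, Parp2, Parp4 and Parp8. There the ranges of neighbors were apart between Parp12 and Parp3, Parp2 and Parp4, and Parp4 and Parp8. Parp14, below Parp2 in all control tumors, thus stood with Parp1 in Villin-WlscKO tumors, at 23.7 against 24.3 FPKM.

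Of the 7 other PARP genes of the table, 3 were called higher and 0 lower, beside 6.12% and 4.75% of all genes tested. At an unadjusted p under 0.05, 3 were higher and 2 lower, beside 2321 and 1987 of the 16757 genes tested. Their median difference was 0.16. Zc3hav1, the zinc-finger antiviral protein that binds CpG-rich viral RNA and lacks transferase activity, rose from 20.7 ± 0.615 to 31.2 ± 1.17 FPKM (SD, n = 5), a difference of 0.57 (SE 0.054, adjusted p = 0.000134). Its groups did not overlap. Parp11, a mono-ADP-ribosyltransferase of the nuclear envelope, rose from 5.64 ± 0.997 to 9.07 ± 0.361 FPKM, a difference of 0.61 (adjusted p = 0.00539), again without overlap. Tiparp, a target of the aryl hydrocarbon receptor that restrains its activator, went from 3.75 ± 0.585 to 5.43 ± 0.600 FPKM, a difference of 0.44 (adjusted p = 0.0291). Its groups overlapped, it lost the call in 10 of 21 alternatives, and it overlaps a pseudogene by 970 bases on the opposite strand. The tankyrases Tnks and Tnks2, which mark Axin for degradation and so act in the Wnt pathway, were at 11.7 ± 0.720 and 75.0 ± 2.53 FPKM in control tumors, and their differences of -0.28 (adjusted p = 0.0767) and -0.23 (adjusted p = 0.119) did not pass, although no Villin-WlscKO tumor reached the control range in Tnks. Parp16, of the endoplasmic reticulum, and Parp6 differed by 0.16 (adjusted p = 0.391) and -0.024 (adjusted p = 0.905), and the sign of Parp6 turned after scaling to an equal total.

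**Figure D3:**
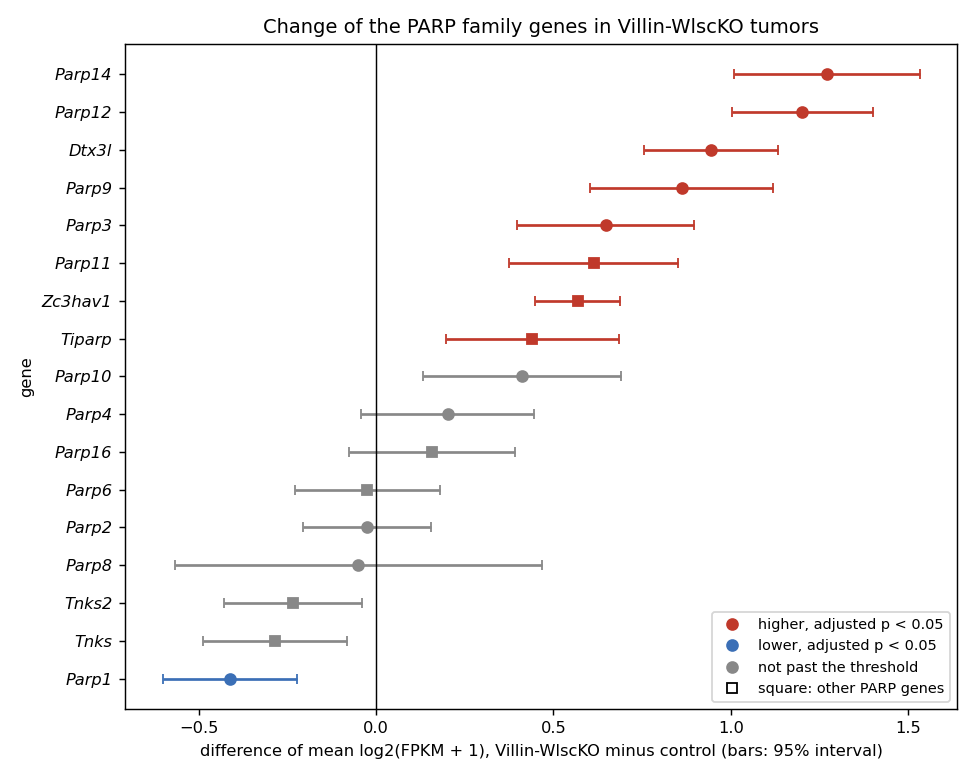
Villin-WlscKO minus control difference in log2(FPKM + 1) (horizontal axis) with its 95% interval for the 10 members (circles) and 7 other PARP genes (squares), ordered by size. Parp14 (1.27) and Parp12 (1.20) lead, 8 genes in red are called higher, Parp1 (-0.41) in blue is the one called lower, and gray genes did not pass an adjusted p of 0.05.

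Genes that work with Parp1 and Parp2 were read from lists of known factors. In the list of single-strand break repair, 1 of 12 genes was called, and it was lower: Chd1l, the chromatin remodeler that poly(ADP-ribose) activates, fell from 19.8 ± 1.00 to 13.0 ± 0.629 FPKM (SD, n = 5), a difference of -0.57 (SE 0.064, adjusted p = 0.000419), with no overlap of the groups and a call in all 22 alternatives. The 1 call in 12 stands beside 10.9% of all genes tested called in either direction. At an unadjusted p under 0.05, 2 of the 12 were lower and 0 higher, beside 1987 lower and 2321 higher among the 16757 genes tested. The median of that list was -0.056. None of the 10 double-strand break repair genes tested was called by limma, and none had an unadjusted p under 0.05, with a median of -0.068. The enzymes that remove ADP-ribose, such as Parg, gave 0 calls in 6 tested genes, 0 at an unadjusted p under 0.05 and a median of 0.045. The 4 Deltex relatives of Dtx3l, Dtx1 to Dtx4, also gave 0 calls, 0 at an unadjusted p under 0.05 and a median of -0.013. These medians are to be read beside 0.0073 over all genes tested. Summed proliferation markers ran from 277 to 381 FPKM in control and from 270 to 367 FPKM in Villin-WlscKO tumors.

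Supply of the substrate and the partner of Parp4 were also listed. Of 9 genes of NAD metabolism tested, 2 were called higher and 0 lower, beside 6.12% and 4.75% of all genes tested. At an unadjusted p under 0.05, 4 were higher, beside 2321 of the 16757 genes tested. Nampt, the rate-limiting enzyme of NAD salvage, went from 18.4 to 23.8 FPKM (difference 0.36, adjusted p = 0.0369), and Nmnat1, the nuclear enzyme that completes NAD, from 3.56 to 5.13 FPKM (0.43, adjusted p = 0.0310). The call of Nampt was lost in 10 of 22 alternatives and that of Nmnat1 in 9 of 21. Of 2 genes of the vault particle, 1 was called: Mvp, the major vault protein, went from 137 to 180 FPKM (0.40, adjusted p = 0.0305) with overlapping groups, lost the call in 10 of 22 alternatives and shares its values with Prrt2, Pagr1a and Pagr1b.

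Because the antiviral members are known interferon targets, they were set beside 30 interferon-induced genes. Of these, 20 were called higher and 0 lower, beside 6.12% and 4.75% of all genes tested. At an unadjusted p under 0.05, 25 were higher and 0 lower, beside 2321 and 1987 of the 16757 genes tested. Their median difference was 1.10, close to the 1.07 of the 4 antiviral members. The largest were guanylate-binding and immunity-related GTPases: Gbp2 (13.7 to 252.9 FPKM, difference 4.16, shared with Gbp2b), Gbp3 (3.54), Igtp (2.55, shared with Irgm2) and Irgm1 (2.42), each called in all 22 alternatives. Spread within a group is given here without a test. The highest control tumor held 1.25 to 1.37 times the lowest for the 4 members (median 1.30). The median of the 30 genes was 2.05 (1.13 to 19.9), and 25 of the 30 exceeded all 4 members. Parp1 (1.28) and Parp2 (1.235) were as narrow as the antiviral members. Of the 30 genes, Irf9 (1.13) and Irf1 (1.24) were narrow too, whereas Ifit2, the widest, started from 0.0353 FPKM. In Villin-WlscKO tumors the medians of the 4 members and of the 30 genes were 1.40 and 2.03.

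Control tumor 1 was the highest control tumor in 20 of the 30 interferon-induced genes but in 1 of the 4 antiviral members, Parp12. Villin-WlscKO tumor 4 was the lowest of its group in 21 of the 30 and in all 4 antiviral members. A group of interferon-induced genes, chosen after its values were seen, was lower in Villin-WlscKO tumor 4 than in control tumor 1: Ifit1 stood at 9.74 against 16.9 FPKM, Ifit3 at 7.32 against 13.95 FPKM, Mx1 at 1.13 against 3.43 FPKM and Rsad2 at 1.39 against 2.15 FPKM. In the same pair of tumors Parp9 stood at 49.0 against 34.8 FPKM, Dtx3l at 26.2 against 15.4 FPKM, Parp14 at 18.7 against 9.65 FPKM and Parp12 at 38.3 against 22.1 FPKM. Over all tumors, 17 of the 30 interferon-induced genes had every Villin-WlscKO tumor above every control tumor, as the 4 antiviral members did. That held for 5.33% of all genes tested. The values of the 2 single tumors are a description without a test.

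**Figure D4:**
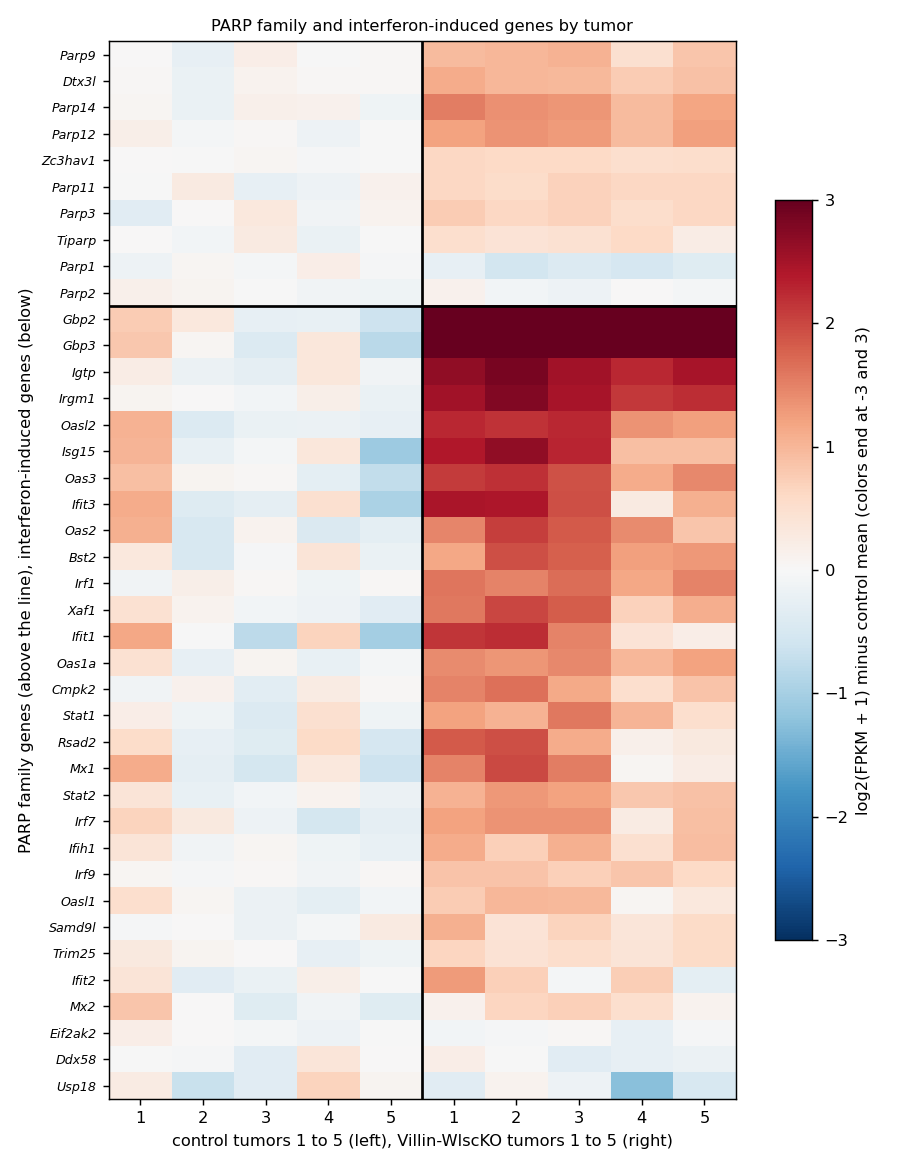
Log2(FPKM + 1) minus the control mean of the gene (color, ending at -3 and 3) in control tumors 1 to 5 and Villin-WlscKO tumors 1 to 5 (columns), for 10 PARP family genes above the line and 30 interferon-induced genes below it (rows). The antiviral members are pale in all control tumors and redder in Villin-WlscKO tumors, least so in Villin-WlscKO tumor 4. Genes such as Ifit1 and Mx1 are also red in control tumor 1 and pale in Villin-WlscKO tumor 4.

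Parp14, Dtx3l and Parp9 are neighbors, so the genes around them were examined for a change of the region as a whole. GENCODE annotates 22 genes within 200 kb of the 3, 12 of them coding, and 11 names including the 3 were in the table. The genes directly beside the 3 members did not rise with them. Hspbap1, 4397 bases from Parp14, differed by -0.11 (adjusted p = 0.676), and Kpna1, 6145 bases from Parp9, was lower in all Villin-WlscKO tumors (difference -0.33, adjusted p = 0.0256). Dirc2, Wdr5b and Ccdc58 differed by -0.031, -0.23 and 0.090 with adjusted p of 0.884, 0.250 and 0.428. Fam162a rose by 0.33 (adjusted p = 0.0376), and at the far end Stfa2l1, a stefin, rose by 1.21 (adjusted p = 0.0288), while Csta1, another inhibitor of cysteine proteases, differed by 1.23 with a wide spread (adjusted p = 0.143). The calls of Kpna1, Fam162a and Stfa2l1 were lost in 7, 12 and 8 of 22 alternatives.

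**Figure D5:**
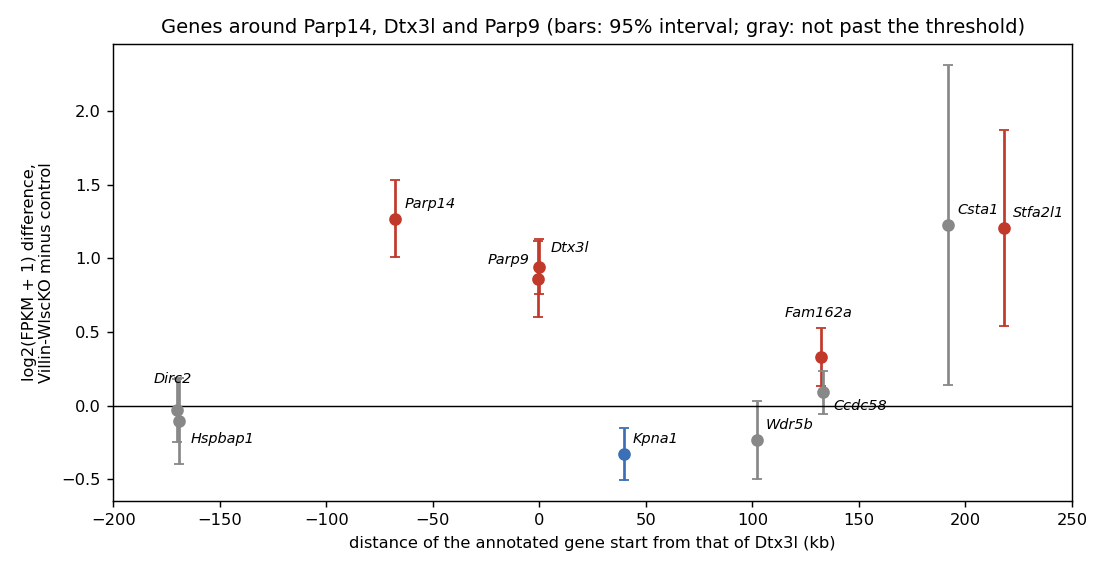
Villin-WlscKO minus control difference in log2(FPKM + 1) with its 95% interval (vertical axis) against the distance of the annotated gene start from that of Dtx3l in kb (horizontal axis), for 11 genes (red higher, blue lower, gray not past the threshold). Parp14, Dtx3l and Parp9 lie between 0.86 and 1.27, whereas Hspbap1 and Kpna1 on either side lie at -0.11 and -0.33.

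Likeness between genes was described by Pearson's r of log2(FPKM + 1) after the mean of each group was removed, over 10 tumors that share their libraries and scaling. Among the members, Parp14 and Dtx3l had the highest r (0.907), followed by Parp9 and Dtx3l (0.873) and Parp9 and Parp14 (0.826). Without the 2 tumors farthest from the median these became 0.788, 0.523 and 0.439, so that both pairs with Parp9 rest in good part on those tumors. Parp12 followed them less closely, with r of 0.691 to Parp9, 0.505 to Parp14 and 0.505 to Dtx3l, which became 0.267, 0.121 and 0.251 without the 2 farthest tumors. Parp1 and Parp2 had an r of -0.040 to each other. Over 11792 genes with a mean of at least 5 FPKM, the gene most like Parp12 was Adar (r = 0.931), the interferon-induced editor of double-stranded RNA, which went from 14.8 ± 1.13 to 21.8 ± 2.47 FPKM (difference 0.52, adjusted p = 0.00559), and the next was Btf3 (0.927). The leading names were Surf2 (0.944) and Kpnb1 (0.934) for Parp14, Gm10052 (0.941) and Plrg1 (0.923) for Dtx3l, and Ufc1 (0.944) and Ap1m1 (0.935) for Parp9. For the repair members they were Klhl12 (0.921) and Gzf1 (0.911) for Parp1, and Kcnk1 (0.957) and Aim2 (0.946) for Parp2. The others were Odf2 (0.960) and Abl1 (0.941) for Parp3, Ctss (0.907) and Cbfa2t2 (0.894) for Parp4, Plxnd1 (0.961) and Col1a2 (0.959) for Parp8, and Prex1 (0.970) and Zfp598 (0.959) for the entry of Parp10 and Plec. Picked as the highest of so many correlations over 10 tumors, these values are given without a test. Without the 2 tumors farthest from the median of the member they ran from 0.689 (Ufc1 with Parp9) to 0.972 (Prex1 with the entry of Parp10 and Plec).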

How the data were processed

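Messenger RNA of 10 AOM/DSS colon tumors was sequenced from stranded libraries. As the methods and the submitters' processing notes state, the authors used FastQC for read quality, aligned to GRCm38.p5 by TopHat2 2.1.1 and quantified transcripts with Cufflinks 2.2.1 and Cuffdiff at default parameters, with a run on unmerged transcripts to compare single tumors. The deposited values are FPKM by gene name, 1 column per tumor, with 0 columns left over. The annotation release, the choice of the 16875 names and the use of strand are not given in the sources used here. All 10 values are shared by other names in 2419 cases, since overlapping genes received 1 value. FPKM are no counts, so no count test was run and the read depth is unknown.

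Genes with a mean of at least 0.5 FPKM were compared on log2(FPKM + 1) by limma (version 3.58.1, R 4.3.3), with an eBayes variance trend, no covariate and Benjamini-Hochberg adjustment over 16757 genes, and a fold change on this scale understates the change of low genes. Cuffdiff, the study's own test, needs reads. Within-tumor ratios used a two-sided exact permutation test, and summaries and figures were made in Python 3.11.15. The fit was tested on simulated data with known changes. Positions come from GENCODE M21 (GRCm38), which holds 16056 of the names. Where nothing says that tumors came from separate mice, p-values measure only the spread between these tumors.

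The members and lists were chosen with earlier results of these data known. Named are every member, the other PARP genes, called genes of the remaining lists (at most 4 a list, by size), Wls, genes within 200 kb of Parp14, Dtx3l and Parp9, and the 2 genes most correlated with each member. Xist, Eif2s3y, Ifng, Cd4, Rrp9, Adar and the called markers were named after their values were seen. So were the interferon-induced genes set out for their spread or for 2 single tumors. Alternatives changed the pseudocount (0.1), the scaling (an FPKM sum of 1000000, median ratios, quantiles), the filter (none, or a mean of 5 FPKM), the variance model (no trend, robust, weights by tumor), the tumors (each omitted singly, and Villin-WlscKO tumors 2 and 3 together) and the entries (identical ones used once). A fit with the replicate number as a block and log2 ratios of mean FPKM completed them. The authors' comparison tables were not used.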

Additional observations from a re-analysis of the deposited data

Results flagged for a closer look

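In 34 sets of 5 tumors (17 PARP family genes in each of the 2 groups) the distance of the highest or lowest tumor from its nearest neighbor was set against the whole range of the set. Chance alone passes this limit in about 1 of 20 sets, and 2 passed. Dtx3l was lowest in control tumor 2, at 13.0 FPKM, with a gap of 0.737 of the range. Parp6 was lowest in Villin-WlscKO tumor 2, at 9.16 FPKM, with a gap of 0.813 of the range. Dtx3l rose whether or not control tumor 2 was included, and Parp6 was called in none of the 22 alternatives.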

How the results depend on the processing

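Parp3, Parp9, Parp12, Parp14 and Dtx3l were higher and past the threshold in 22 of 22 alternatives with a p, Parp1 was lower in all of them and past it in 19 of 22, and the 8 ratios kept direction and an exact permutation p of at most 0.0357 in 12 of 12. With Villin-WlscKO tumors 2 and 3 left out, 1101 genes were past the threshold (655 higher, 446 lower) instead of 1822 (1026 higher, 796 lower), no member was called lower (0), Parp1 stood at -0.36, Parp2 at 0.034, Parp8 at -0.38, Parp6 at 0.034 and Hspbap1 at 0.00036. Scaled to an equal total, 412 genes were lower and 1385 higher (77.1% of calls, against 56.3%), 0 members were lower, Parp1 stood at -0.31, Parp2 at 0.074, Parp8 at 0.031, Parp6 at 0.069 and Dirc2 at 0.072, and the entry of Parp10 and Plec was past the threshold at 0.51. This scaling moves the median of all genes from 0.0073 to 0.097. Under quantile normalization 893 genes were higher and 1125 lower (44.3% higher). Tumor quality weights put Parp8 at 0.0043.

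The sample titles number the tumors and do not say whether same-numbered tumors are paired. Correlations of same-numbered tumors after removal of group means lay between -0.087 and 0.16, which cannot settle it. A replicate block gave 1627 genes (991 higher, 636 lower), with 0 members lower, Parp1 at -0.41 (adjusted p = 0.0581) and Parp10 past the threshold at 0.41 (adjusted p = 0.0197).

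With single tumors left out, 1229 to 1986 genes were past the threshold and 507 to 808 were lower, the fewest without control tumor 2. The differences ran from -0.066 to 0.013 for Parp2, -0.19 to 0.11 for Parp8, 0.34 to 0.50 for Parp10, -0.069 to 0.034 for Parp6 and -0.076 to 0.033 for Dirc2. The cause of these changes was not tested. Depth is unknown, so that the spread between tumors is the one limit on precision that could be measured.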
